A study of Homo sapiens with 21 samples.

Results

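The genes described are 10 transcription factors of hematopoietic stem and progenitor cells (MYB, GATA2, RUNX1, MEIS1, HOXA9, HOXA10, HLF, MECOM, CEBPA and SPI1), taken by symbol from the 58174 gene identifiers measured in OCI-AML5, an established human acute myeloid leukemia line. Every group is 3 poly(A) RNA libraries, 21 in all. Control OCI-AML5 cells, for which the labels give no edit, were in DMSO (labelled 72 h) or in UM171, a small molecule that expands human hematopoietic stem cells in culture, for 6, 24, 48 or 72 h. Cells carrying a CRISPR guide against EPCR (sgEPCR), labelled both null and knockdown, were in DMSO or in UM171, each for 24 h. All UM171 labels give 500 nM, and the study's text gives a lower dose. The labels call the sgEPCR cells a clone without naming it for each library, the study's text speaks of independent clones and calls the wild type arm sgAAVS1, the series text says that RNA came from sorted subsets without giving the gate, and the labels do not say whether replicates were separate cultures or clones. P-values therefore measure the spread between libraries, which may be technical in control cells and may lie between clones in sgEPCR cells. DMSO was taken at 72 h only, so culture time cannot be told apart from UM171 at 6, 24 and 48 h, and time cannot be told apart from genotype where sgEPCR and control DMSO are compared.

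In blood formation a small set of DNA-binding proteins decides which genes a progenitor can use. GATA2, RUNX1, MEIS1, the posterior HOXA proteins, HLF, MECOM and MYB are best known for keeping stem and early progenitor cells in their state, while SPI1 (the factor PU.1) and CEBPA drive progenitors towards monocytes and granulocytes. GATA2 and PU.1 bind each other and oppose each other's targets, and MEIS1 binds DNA together with HOXA9 and is a driver of many myeloid leukemias.

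Each library held 24.3 to 51.5 M (mega) counts with a median of 33.9 M. The identity markers LYZ, PTPRC and CD33 were present in every library, at least at 357, 102 and 34.6 TPM (the authors' length-normalised transcript level), while ANPEP did not exceed 1.14 TPM. Of the other markers, the erythroid genes HBB and HBA1 did not exceed 0.08 and 0.09 TPM, ALAS2, MS4A1, PF4, GP9 and LUM were at 0 everywhere, and CD3D, CD79A and ITGA2B reached 18.8, 40.4 and 20.2 TPM in some library. PROCR, the gene of EPCR, was at 48.5 TPM in each of the 3 control libraries at 24 h of UM171 and at 8.94, 4.23 and 8.41 TPM in sgEPCR cells at 24 h. In DMSO PROCR was at 3.37, 4.30 and 3.38 TPM in control cells and at 2.30, 4.53 and 3.93 TPM in sgEPCR cells, ranges that overlapped. Mitochondrial genes took 35.9% of the counts of sgEPCR DMSO replicate 1 and 32.2% of those of sgEPCR UM171 replicate 2, while the share elsewhere was 7.73 to 13.5% (19 libraries). Tests of the factors in sgEPCR cells are therefore given with and without these libraries, and the part of RNA quality in them was not tested. The 13.5% belongs to UM171 48 h replicate 3, which also held the lowest 48 h TPM of GATA2 and CEBPA. Its counts differed from those of its replicates by a chi-square per gene of 46.2 and 49.9. Other replicate pairs without a high mitochondrial library had 1.65 to 9.33. The part of RNA quality in the 48 h values was not tested.

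Control cells in UM171 had more GATA2, HOXA9 and MEIS1 RNA and less SPI1, CEBPA and MYB RNA than control cells in DMSO at 72 h, and 8 of the 10 genes had enough counts to be tested. At 6 h 3 of the 8 were higher and 4 lower at an adjusted p under 0.05, when 31.8% and 30.3% of 16575 tested genes were (62.1% in either direction). At 24 h the numbers were again 3 and 4, against 34.9% and 34.8% of all genes (69.7% together), and at 48 h 3 and 4, against 37.1% and 35% (72.1%). At 72 h 3 were higher and 3 lower, against 38.8% and 36.8% (75.6%). Most expressed genes passed this threshold, so the counts of called factors say little about the factors themselves. Under the study's limits of a change over 2-fold and an adjusted p under 0.0001, 1 of 8 factors was called at 6 h (7.03% of all genes), 2 each at 24 h (13.7%) and 48 h (16.4%), and 4 by 72 h (20.8%). SPI1 lay just inside the 2-fold limit at 72 h, 2.00-fold lower, and CEBPA just outside it, 1.96-fold lower. The median absolute log2 change of the 8 factors at 72 h was 0.99, beside 0.58 over all tested genes. In bulk RNA, fewer cells that express a factor and less RNA per cell cannot be told apart. From 24 to 72 h 6 of the 8 factors changed (69.9% of genes), 5 of them upwards. All tests are edgeR's quasi-likelihood test with Benjamini-Hochberg adjustment over all tested genes. Errors of log2 changes are standard errors worked back from that test, the absolute log2 change over the square root of its F.

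**Figure D1:**
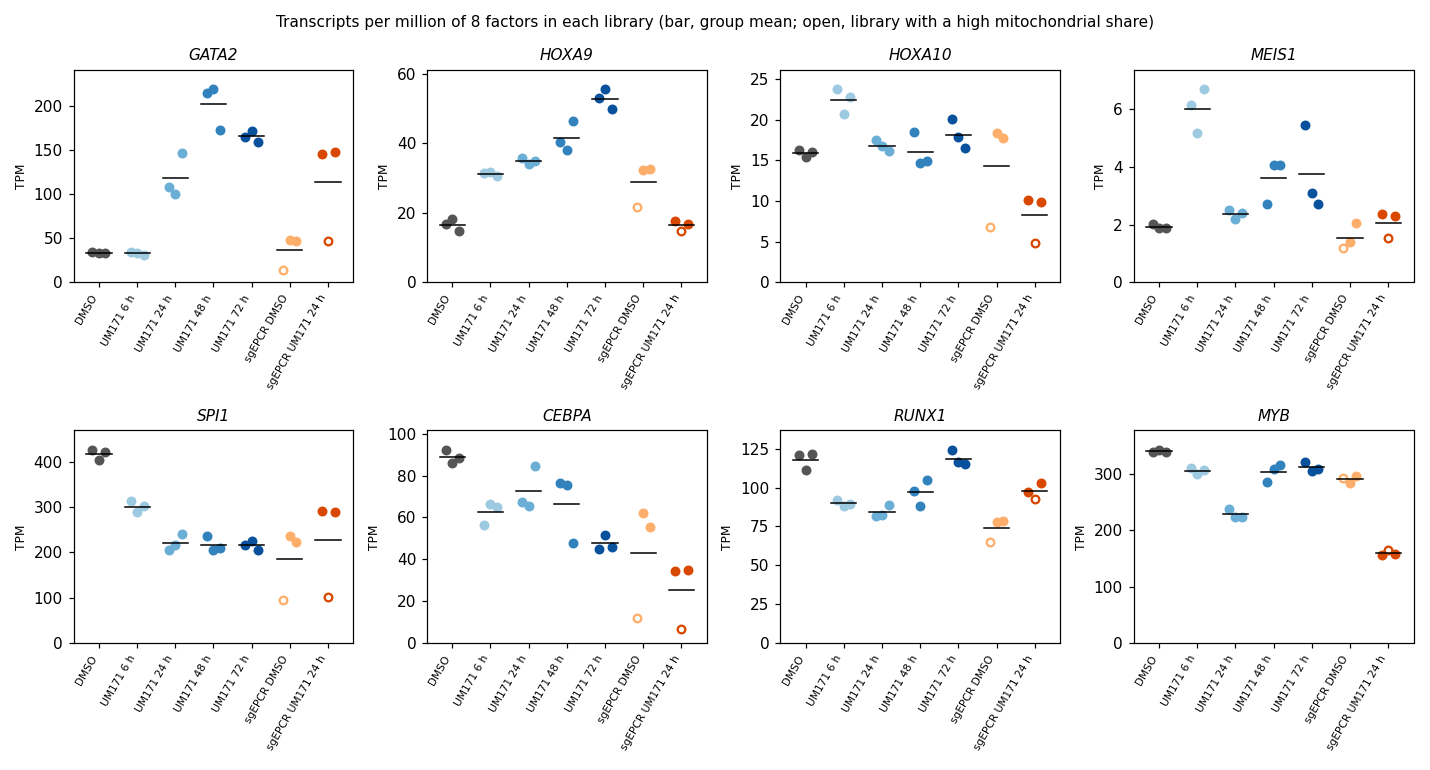
TPM of 8 transcription factors (vertical axes, linear, from 0) in each of the 21 libraries, by group; bars are means of 3 libraries and open circles are the 2 sgEPCR libraries with a high mitochondrial share. In control cells GATA2 sits at 31.4 to 34.8 TPM in DMSO and at 6 h and at 100.3 TPM or more from 24 h, and the open circles lie far below their groups for GATA2, SPI1, CEBPA and HOXA10 but not for MYB.

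GATA2 (chr3:128479427-128493201 on GRCh38, minus strand, protein coding), a zinc finger factor needed for stem cell maintenance, had the largest change of the 8 at 24, 48 and 72 h. Its level was 34.0, 33.5 and 33.8 TPM in the DMSO libraries and 34.8, 33.4 and 31.4 TPM at 6 h, ranges that overlapped (adjusted p = 0.0953). It was 108, 100.3 and 146 TPM at 24 h, 215, 219 and 172 TPM at 48 h, and 165, 172 and 159 TPM at 72 h. Every library from 24 h on was above every DMSO and 6 h library. The log2 change against DMSO was 1.74 ± 0.10 at 24 h (adjusted p = 7.14e-11), 2.58 ± 0.10 at 48 h (3.80e-13), which is 5.98-fold, and 2.19 ± 0.10 at 72 h (1.93e-12). Among all 7 groups the order of mean TPM was 6 h, DMSO, sgEPCR DMSO, sgEPCR UM171, UM171 24 h, 72 h and 48 h, and of neighbours in this order only 24 and 72 h, and 72 and 48 h, had ranges apart. GATA2-AS1, which overlaps GATA2 on the other strand, stayed at or below 1.09 TPM in a strand-specific library type.

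RefSeq (GRCh38.p14) lists 14 promoters for 9 of the 10 factors, and those of the 3 genes that rose by 72 h are shown because the motifs searched are those of the factors described here. SPI1 has no entry in the table. Each run is the 250 bases before the start, 5′ to 3′ on the gene's strand, and none of the 4 overlaps an annotated exon. Capitals mark matches, on either strand, to short motifs. The GATA motif was AGATAA or TGATAA, that of RUNX was TGTGGT or TGCGGT, and that of PU.1 was GAGGAA. The letters were TTGCNNAA for CEBP, AACGGN or AACTGN for MYB and TGACAG for MEIS. For HOX they were TGATTTAT or TAATTA, and the E-box was CAGCTG. No capitals overlap between motifs in these runs.
GATA2 upstream start, chr3:128493202-128493451 (minus): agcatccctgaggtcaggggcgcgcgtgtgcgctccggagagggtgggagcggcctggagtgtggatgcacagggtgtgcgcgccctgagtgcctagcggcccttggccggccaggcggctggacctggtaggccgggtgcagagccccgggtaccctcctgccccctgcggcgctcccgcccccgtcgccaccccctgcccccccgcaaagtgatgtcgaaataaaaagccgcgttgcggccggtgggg
GATA2 inner start, chr3:128488531-128488780 (minus): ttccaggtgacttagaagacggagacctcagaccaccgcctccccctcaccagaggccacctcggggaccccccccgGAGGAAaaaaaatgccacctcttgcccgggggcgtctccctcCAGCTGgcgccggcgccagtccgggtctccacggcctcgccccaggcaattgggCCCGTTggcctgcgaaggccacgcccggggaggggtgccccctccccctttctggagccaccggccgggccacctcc
HOXA9, chr7:27165538-27165787 (minus): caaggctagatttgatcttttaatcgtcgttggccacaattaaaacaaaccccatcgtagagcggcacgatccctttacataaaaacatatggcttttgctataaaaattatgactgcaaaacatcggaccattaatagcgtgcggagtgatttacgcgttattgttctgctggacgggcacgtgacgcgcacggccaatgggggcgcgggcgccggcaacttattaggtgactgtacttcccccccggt
MEIS1, chr2:66434875-66435124 (plus): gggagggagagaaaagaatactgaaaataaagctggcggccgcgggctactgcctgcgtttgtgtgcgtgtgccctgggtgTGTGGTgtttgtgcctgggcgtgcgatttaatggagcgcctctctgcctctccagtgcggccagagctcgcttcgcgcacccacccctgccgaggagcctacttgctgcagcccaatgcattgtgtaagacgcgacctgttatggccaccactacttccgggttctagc
The inner GATA2 window held 1 PU.1, 1 MYB and 1 E-box match and the MEIS1 window 1 RUNX match, while the upstream GATA2 window and the HOXA9 window held none. Matches to the same letters are common, in 23.6% (PU.1), 45.5% (MYB), 14% (E-box) and 16.3% (RUNX) of 35116 promoter windows of this length. Over the 14 promoters of the factors, 4 held a PU.1 match, 4 a MYB match, 2 a RUNX match and 2 a GATA match, the last against 14.6% of all windows. A match is a description of letters and no evidence of binding.

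SPI1 (chr11:47354860-47378547, minus strand), the factor PU.1 of the monocyte and granulocyte lineages, fell at every time point. Its level was 426, 403 and 421 TPM in DMSO, 313, 288 and 303 TPM at 6 h, 205, 216 and 241 TPM at 24 h, 235, 206 and 209.9 TPM at 48 h, and 217, 226 and 204 TPM at 72 h. All 12 UM171 libraries were below all DMSO libraries, and the 24, 48 and 72 h ranges overlapped. Relative to DMSO, the log2 change was -0.63 ± 0.07 at 6 h (adjusted p = 1.36e-06), -0.95 ± 0.07 at 24 h (4.89e-09), -0.88 ± 0.07 at 48 h (9.59e-09) and -1.0 ± 0.07 at 72 h (1.46e-09). With a correction for GC content, which is 64.8% in SPI1 transcripts against a median of 49.2% over tested genes, the 6 h change was -0.37 and the 72 h change -0.92.

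CEBPA (chr19:33299934-33302534, minus strand), an intronless gene whose product is needed to make granulocytes, fell most at 72 h. It was at 92.3, 86.2 and 88.3 TPM in DMSO, 56.5, 66.5 and 64.8 TPM at 6 h, 67.6, 65.3 and 84.6 TPM at 24 h, 76.2, 75.3 and 47.9 TPM at 48 h, and 45.0, 51.7 and 46.1 TPM at 72 h. Each UM171 library was below each DMSO library, by little in replicate 3 at 24 h. On the log2 scale the change was -0.68 ± 0.10 at 6 h (adjusted p = 2.03e-05), -0.34 ± 0.10 at 24 h (0.00626), -0.40 ± 0.10 at 48 h (0.00164) and -0.97 ± 0.10 at 72 h (1.34e-07). At 24 h the call was lost with the GC correction (-0.12, adjusted p = 0.174) and on log2(TPM + 1) with limma (-0.30, adjusted p = 0.0938). From 24 to 72 h CEBPA fell further, by 0.64 ± 0.10 on the log2 scale (2.90e-05). An edgeR fit of all 21 libraries lost the CEBPA calls at 6, 24 and 48 h and from 24 to 72 h (adjusted p of 0.0725 to 0.369). An unnamed antisense lncRNA that overlaps CEBPA was listed at 0.47 to 10.5 TPM over the 21 libraries.

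The ratio of GATA2 to SPI1 TPM within a library, for which a scale factor of the whole library cancels, was 0.0797 to 0.0830 in DMSO and 0.103 to 0.116 at 6 h. It was 0.464 to 0.608 at 24 h, 0.822 to 1.06 at 48 h and 0.759 to 0.780 at 72 h. GATA2 transcripts thus were far fewer than SPI1 transcripts in DMSO and about as many at 48 h, with no overlap between DMSO and any UM171 group. The GATA2 to CEBPA ratio was 0.369 to 0.389 in DMSO, 1.54 to 1.73 at 24 h and 3.33 to 3.66 at 72 h. These ratios were chosen after the values of the 3 genes were seen and were not tested. GATA2, SPI1 and CEBPA transcripts have like GC content (64.9%, 64.8% and 65.9%).

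**Figure D2:**
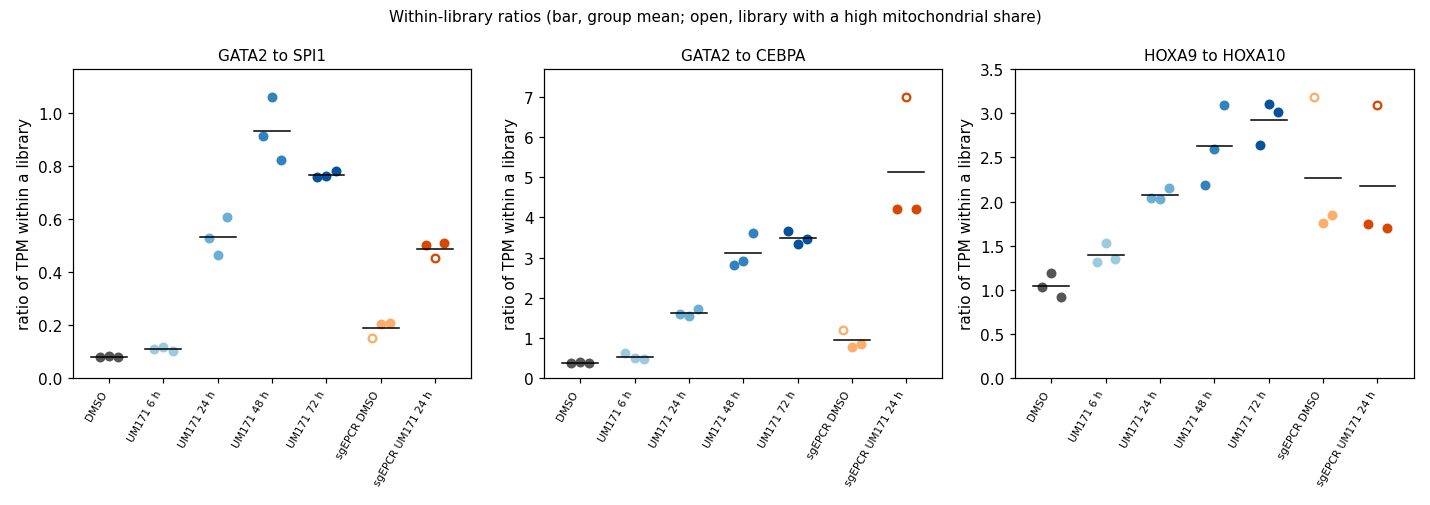
Ratio of TPM within each library (vertical axes, linear, from 0) for GATA2 to SPI1, GATA2 to CEBPA and HOXA9 to HOXA10, by group; bars are means of 3 libraries and open circles the 2 libraries with a high mitochondrial share. The GATA2 to SPI1 ratio is 0.0797 to 0.0830 in DMSO and 0.822 to 1.06 at 48 h, and the open circles lie near their groups in that panel.

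HOXA9 and HOXA10, neighbouring homeobox genes of the posterior HOXA cluster, moved apart. HOXA9 (chr7:27162438-27175180, minus strand), which is highest in primitive cells and falls as they mature, was at 16.7, 18.3 and 14.9 TPM in DMSO, 31.4, 31.8 and 30.7 TPM at 6 h, 35.7, 34.1 and 34.8 TPM at 24 h, 40.4, 38.0 and 46.3 TPM at 48 h, and 53.1, 55.6 and 49.7 TPM at 72 h. The ranges of the 5 control groups did not overlap, and each later group was above the one before it. Against DMSO the rise on the log2 scale was 0.72 ± 0.09 at 6 h (adjusted p = 4.34e-06), 1.05 ± 0.09 at 24 h (1.91e-08), 1.28 ± 0.09 at 48 h (1.16e-09) and 1.56 ± 0.09 at 72 h (5.36e-11), and the rise from 24 to 72 h was 0.51 ± 0.08 (4.22e-05).

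HOXA10 (chr7:27170605-27180261, minus strand), a related factor of progenitors, was higher at 6 h only by the test. Its libraries held 16.2, 15.4 and 16.1 TPM in DMSO and 23.8, 20.8 and 22.8 TPM at 6 h, with a log2 change of 0.28 ± 0.06 (adjusted p = 5.94e-04). The 24 h libraries held 16.2 to 17.5 TPM, the 48 h libraries 14.6 to 18.5 TPM and the 72 h libraries 16.5 to 20.1 TPM, with adjusted p of 0.722, 0.227 and 0.762 against DMSO. The HOXA9 to HOXA10 ratio of TPM was 0.924 to 1.19 in DMSO, 1.32 to 1.53 at 6 h, 2.03 to 2.15 at 24 h and 2.65 to 3.10 at 72 h. The annotated spans of the 2 genes overlap on the same strand. RSEM's posterior SD of the HOXA9 count was 0.93 to 1.45 counts and that of HOXA10 was 0, so few reads were split between annotated genes. HOXA10-AS, on the other strand, was at 6.17 to 14.4 TPM.

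MEIS1 (chr2:66433452-66573869, plus strand), the TALE homeodomain partner of HOXA9, was expressed at a low level and peaked at the first time point. Libraries held 2.03, 1.88 and 1.89 TPM in DMSO, 6.16, 5.19 and 6.70 TPM at 6 h, 2.5, 2.19 and 2.40 TPM at 24 h, 2.72, 4.05 and 4.07 TPM at 48 h, and 5.46, 3.09 and 2.71 TPM at 72 h. Expected counts, which are not divided by transcript length or scaled for library depth, were 71 to 82 in DMSO, 225 to 286 at 6 h, 98 to 174 at 24 h, 104 to 193 at 48 h and 164 to 168 at 72 h. All UM171 libraries were above all DMSO libraries on both scales, of which the counts also vary with depth. In log2 units the rise was 1.76 ± 0.11 at 6 h (adjusted p = 6.86e-10), 0.70 ± 0.11 at 24 h (3.13e-05), 0.87 ± 0.11 at 48 h (2.17e-06) and 1.06 ± 0.11 at 72 h (1.38e-07). At 24 h the call was lost with limma on log2(TPM + 1) (0.20, adjusted p = 0.361). The weighted length of MEIS1 transcripts was 1694 to 1767 bases in DMSO, 2148 to 2567 bases at 24 h and 1346 to 2595 bases over all libraries. Longer transcripts give more reads, and the part of length in the changes of the counts was not tested.

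RUNX1 (chr21:34787801-36004667, minus strand), which opens the blood program in the embryo, was lower than in DMSO at 6, 24 and 48 h but not at 72 h. It was at 121, 112 and 121 TPM in DMSO, 92.3, 88.0 and 89.4 TPM at 6 h, 81.6, 82.5 and 88.5 TPM at 24 h, and 98.1, 88.2 and 105 TPM at 48 h, all below DMSO. At 72 h the libraries held 124, 116 and 115 TPM, inside or beside the DMSO range (adjusted p = 0.245). Only this comparison matches DMSO in labelled time, and culture time cannot be told apart from UM171 at the earlier points. Relative to DMSO the log2 change was -0.58 ± 0.05 at 6 h (adjusted p = 1.08e-07), -0.42 ± 0.05 at 24 h (2.28e-06) and -0.28 ± 0.05 at 48 h (1.68e-04), and 72 h exceeded 24 h by 0.35 ± 0.05 (1.83e-05). An edgeR fit of all 21 libraries lost the RUNX1 calls at 24 h, at 48 h and from 24 to 72 h (adjusted p of 0.123, 0.289 and 0.212).

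MYB (chr6:135181308-135219173, plus strand), a factor that keeps progenitors dividing, was lowest at 24 h among control cells. Its level was 339.7, 343 and 339.9 TPM in DMSO, 310.3, 300.4 and 308 TPM at 6 h, 238, 223 and 224 TPM at 24 h, 287, 308 and 316 TPM at 48 h, and 321, 306 and 309 TPM at 72 h. No UM171 library reached the DMSO range. The log2 change was -0.33 ± 0.05 at 6 h (adjusted p = 2.65e-05), -0.56 ± 0.05 at 24 h (3.45e-08), -0.13 ± 0.05 at 48 h (0.0280) and -0.22 ± 0.05 at 72 h (8.72e-04). At 48 h the call was lost without DMSO replicate 1 or 3 or without 48 h replicate 1 or 2, with adjusted p of 0.0549 to 0.141. An edgeR fit of all 21 libraries lost the MYB calls at 6, 48 and 72 h (adjusted p of 0.166, 0.564 and 0.296).

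**Figure D3:**
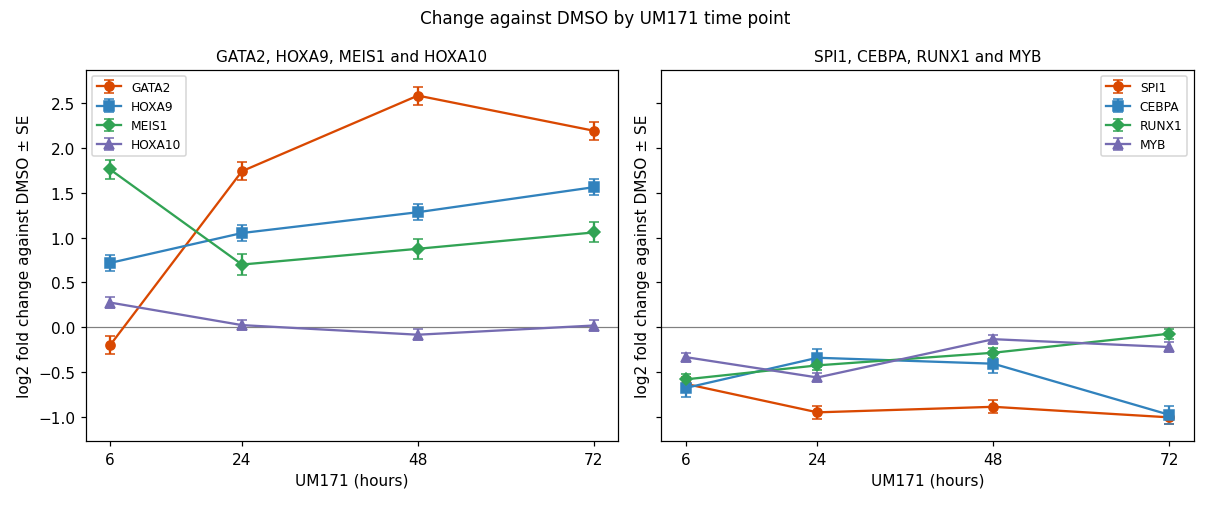
Log2 fold change against DMSO (vertical axis, with standard errors, n = 3 libraries a group) of 8 transcription factors by hours of UM171. GATA2 goes from -0.20 at 6 h to 2.58 at 48 h, MEIS1 starts at 1.76, HOXA9 goes from 0.72 to 1.56, and SPI1 stays between -0.63 and -1.0.

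HLF and MECOM, factors that mark the most primitive stem cells, were close to absent and did not pass the filter on low counts. HLF (chr17:55264960-55325187, plus strand) had 55 expected counts over all 21 libraries, with 0, 2 and 3 in DMSO, 7, 11 and 4 at 6 h, and at most 5 in any other library. MECOM (chr3:169083499-169663775, minus strand) had 38 counts in all. It was at 0 in all 6 DMSO libraries, control and sgEPCR, and had 1 to 7 counts in each control UM171 library. Summed over the group, MECOM had 4 counts at 6 h, 8 at 24 h and 10 each at 48 and 72 h, and HLF 5 in DMSO and 22 at 6 h. With a floor of 3 counts a library, which covers counting error only, no fold change is given. RPL22P1, a ribosomal pseudogene inside MECOM on the same strand, was listed at 401 to 1305 TPM and was counted apart from it. Its highest expected count was not a whole number (10282.8), so RSEM divided some reads between it and other genes. The listed level therefore need not come from that locus.

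In sgEPCR cells GATA2 was higher after 24 h of UM171, and the responses of HOXA9, HOXA10 and SPI1 differed from those of control cells. At an adjusted p under 0.05, 1 of 8 factors was higher (27% of 15901 tested genes were) and 4 lower (25.1%), 52.1% of genes in either direction. Without the libraries with a high mitochondrial share, 6 of 8 were called, against 71% of genes. The difference between the responses of sgEPCR and control cells was called for 3 of 8 factors (45% of genes), and for 6 without those libraries (69.2%). The control libraries are those of the time course, so these results share them.

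HOXA9 fell in sgEPCR cells where it rose in control cells. The sgEPCR libraries held 21.6, 32.4 and 32.7 TPM in DMSO and 17.7, 14.8 and 16.8 TPM in UM171, without overlap. The log2 change was -1.05 ± 0.23 (adjusted p = 0.00262), and its difference from the response of control cells was -2.10 ± 0.32 (adjusted p = 3.59e-04). Without the high mitochondrial libraries the response was -1.1 ± 0.08 (3.08e-08) and the difference -2.14 ± 0.11 (5.34e-10). With all libraries, GC offsets and a replicate block in edgeR the response was not called (-0.85, adjusted p = 0.0949). In DMSO sgEPCR cells had more HOXA9 than control cells, by 1.33 ± 0.23 (adjusted p = 0.00112) or 1.09 ± 0.08 without those libraries. In UM171 they had less, by -0.77 ± 0.22 (adjusted p = 0.0179) or -1.06 ± 0.08. The last call, with all libraries, was lost with GC offsets (-0.57, adjusted p = 0.163) and without UM171 24 h replicate 1 or sgEPCR UM171 replicate 1 or 3 (0.0505 to 0.0652).

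HOXA10 also fell in sgEPCR cells. It was at 6.76, 18.4 and 17.7 TPM in sgEPCR DMSO and at 10.1, 4.79 and 9.90 TPM in sgEPCR UM171. These ranges overlapped, and the low value of each group is the library with a high mitochondrial share. The log2 change was -1.05 ± 0.08 (adjusted p = 2.05e-06) and the difference from control cells -1.08 ± 0.12 (3.37e-05), or -1.05 ± 0.06 and -1.07 ± 0.08 without those libraries. In UM171 sgEPCR cells had less HOXA10 than control cells, by -0.82 ± 0.08 (2.48e-05) or -0.77 ± 0.06 without those libraries. Limma on log2(TPM + 1) with all libraries called neither this difference (-1.0, adjusted p = 0.0902) nor the response (-0.67, 0.232). In DMSO the difference of 0.26 ± 0.08 (adjusted p = 0.0282) was lost without any 1 of the control DMSO libraries or without sgEPCR DMSO replicate 2 or 3 (adjusted p of 0.0636 to 0.115), and was 0.30 ± 0.06 (3.06e-04) without the high mitochondrial libraries. The HOXA9 to HOXA10 ratio of TPM was 1.76 and 1.85 in sgEPCR DMSO and 1.75 and 1.70 in sgEPCR UM171, and 3.19 and 3.09 in the high mitochondrial library of each, close between DMSO and UM171 within each kind of library.

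SPI1 was not called with UM171 in sgEPCR cells by the main test. Its level was 95.7, 237 and 223 TPM in sgEPCR DMSO and 291, 102 and 289 TPM in sgEPCR UM171 (adjusted p = 0.985). Without the high mitochondrial libraries the response was not called either (0.13 ± 0.06, adjusted p = 0.0826), but with GC offsets and without those libraries SPI1 was higher (0.33 ± 0.05, adjusted p = 2.17e-05). The difference from the response of control cells was 0.94 ± 0.19 (adjusted p = 0.00249) or 1.08 ± 0.08 without the high mitochondrial libraries (2.25e-08). sgEPCR cells in DMSO already had less SPI1 than control cells, by -0.77 ± 0.14 (adjusted p = 0.00139), or -0.75 ± 0.06 without those libraries. On log2(TPM + 1) with limma and all libraries, the differences of response of HOXA10 and SPI1 were not called (adjusted p of 0.388 and 0.232). Nor was the SPI1 difference from control cells in DMSO (-1.28, adjusted p = 0.0807).

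GATA2 was at 14.5, 48.2 and 46.5 TPM in sgEPCR DMSO and at 146, 46.4 and 147 TPM in sgEPCR UM171, a log2 change of 1.44 ± 0.21 (adjusted p = 1.91e-04) and of 1.48 ± 0.12 without the high mitochondrial libraries. The difference from control cells was not called (adjusted p = 0.411, and 0.177 without those libraries). The GATA2 to SPI1 ratio was 0.151 to 0.209 in sgEPCR DMSO and 0.455 to 0.509 in sgEPCR UM171, high mitochondrial libraries included. In DMSO without those libraries GATA2 was higher in sgEPCR than in control cells by 0.52 ± 0.12 (adjusted p = 0.00150).

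MYB fell in sgEPCR cells from 293, 285 and 297 TPM to 157, 166 and 158 TPM, by 1.06 ± 0.23 on the log2 scale (adjusted p = 0.00304) or 1.06 ± 0.04 without the high mitochondrial libraries. Its difference from the response of control cells was called only without the high mitochondrial libraries (-0.50 ± 0.05, 4.65e-07). CEBPA was at 12, 62.1 and 55.2 TPM in sgEPCR DMSO and 34.6, 6.63 and 35.0 TPM in sgEPCR UM171. Its log2 change of -1.01 ± 0.37 (adjusted p = 0.0400) was lost without any 1 of the control DMSO or control UM171 24 h libraries, sgEPCR DMSO replicate 2 or 3 or sgEPCR UM171 replicate 2 (adjusted p of 0.0537 to 0.145), and was -0.95 ± 0.10 (6.12e-07) without both high mitochondrial libraries. sgEPCR cells had less CEBPA than control cells in UM171, by -1.46 ± 0.37 (adjusted p = 0.00886) or -1.11 ± 0.09 without those libraries.

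RUNX1 was at 65.0, 77.7 and 78.7 TPM in sgEPCR DMSO, below the control DMSO range, and at 97.4, 93.0 and 103 TPM in sgEPCR UM171, above the control range at 24 h. Without the high mitochondrial libraries it rose with UM171 by 0.18 ± 0.04 (adjusted p = 0.00195), and the difference from the fall in control cells was 0.61 ± 0.06 (3.02e-07), while neither was called with all libraries (0.712 and 0.281). MEIS1 was at 1.19, 1.39 and 2.04 TPM in sgEPCR DMSO and at 2.36, 1.54 and 2.31 TPM in sgEPCR UM171, ranges that overlapped (adjusted p = 0.0821, and 0.152 without the high mitochondrial libraries). HLF had at most 2 counts in any sgEPCR library, and MECOM had 1, 0 and 5 counts in sgEPCR UM171.

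**Figure D4:**
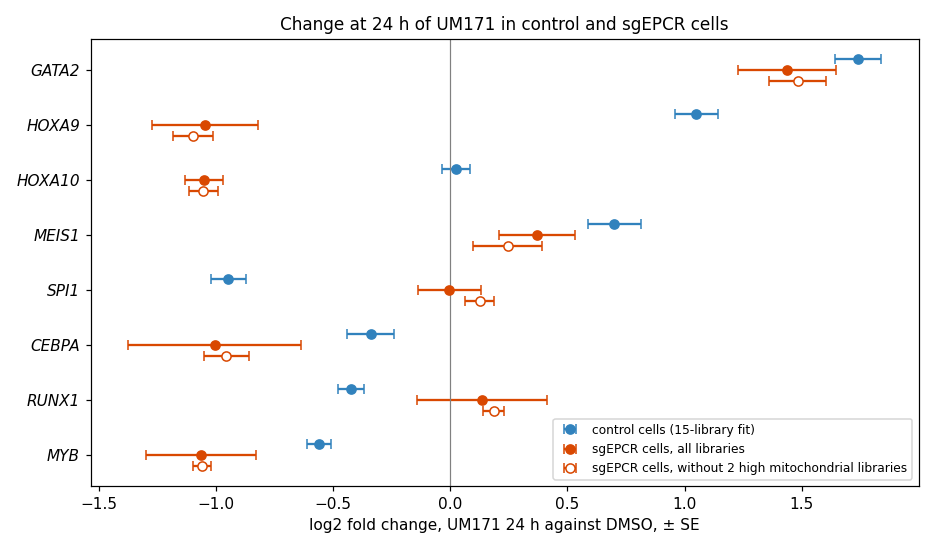
Log2 fold change of UM171 24 h against DMSO (horizontal axis, with standard errors) of 8 factors in control cells, in sgEPCR cells, and in sgEPCR cells without the 2 libraries with a high mitochondrial share (open circles). HOXA9 lies at 1.05 in control and -1.05 in sgEPCR cells, SPI1 at -0.95 and near 0, and GATA2 at 1.74 and 1.44.

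Compared directly in DMSO, 3 of 8 factors differed between sgEPCR and control cells (33.7% of genes) and 8 of 8 without the high mitochondrial libraries (60.3%). In UM171 3 differed (43%), and 7 without those libraries (68.3%). In that smaller comparison sgEPCR cells in DMSO had more GATA2, HOXA9, HOXA10 and MEIS1 (0.37 ± 0.14) and less CEBPA (-0.50 ± 0.09), MYB (-0.12 ± 0.03), RUNX1 (-0.40 ± 0.04) and SPI1. With all libraries MYB (0.19 ± 0.23) and RUNX1 (0.0018 ± 0.28) were not called there, and both values were smaller than their errors. Limma on log2(TPM + 1) with all libraries called RUNX1 lower there (-0.67, adjusted p = 0.0169). GATA2, MEIS1 and CEBPA kept their sign with all libraries but were not called either (adjusted p of 0.185, 0.0778 and 0.127). In the smaller comparison sgEPCR cells in UM171 had more GATA2 (0.27 ± 0.11), RUNX1 (0.21 ± 0.04) and SPI1 (0.33 ± 0.06) and less CEBPA (-1.11 ± 0.09), HOXA9, HOXA10 and MYB (-0.62 ± 0.04). HOXA9, HOXA10, RUNX1 and SPI1 thus lay on opposite sides of control cells in DMSO and in UM171 in that comparison. In UM171 GATA2, RUNX1, SPI1 and MYB were not called with all libraries (adjusted p of 0.809, 0.134, 0.361 and 0.287). When GC offsets were added to the smaller comparison, GATA2 in UM171 was 0.10 (adjusted p = 0.306) and SPI1 0.16 (0.00515). With all libraries limma on TPM gave SPI1 in UM171 the other sign (-0.10).

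Most other tested genes of the HOXA cluster rose with HOXA9 in control cells. Of 9 genes listed, 6 were tested, and 5 were higher and 0 lower at each of the 4 time points, when 31.8% to 38.8% of all genes were higher. Their median log2 change at 72 h was 2.33, beside 0.02 over all tested genes. Of the tested genes HOXA3, HOXA4, HOXA5 and HOXA6 were low, at most at 0.53, 2.03, 2.72 and 1.27 TPM in any library. Their highest counts were 29, 59, 60 and 31. The filter on low counts can pass such genes through the groups where they are high. The counts of called genes and the median are therefore a description and no test of the cluster. HOXA7, a neighbour of HOXA9, went from 1.06 to 1.26 TPM in DMSO to 5.93 to 7.87 TPM at 6 h (2.37 ± 0.13, adjusted p = 1.33e-10) and 3.58 to 3.79 TPM at 72 h (1.71 ± 0.13). HOXA2, HOXA11 and HOXA13 had at most 5 counts in a library. In sgEPCR cells 5 of 5 tested were higher than in control cells in DMSO, with all libraries (33.7% of all genes called) and without the high mitochondrial ones (60.3%). With UM171 0 of 5 were called (52.1% of genes), and 0 higher and 2 lower without those libraries (71%). The difference of response was negative and called for 4 of 5 (45%), and for 5 of 5 without those libraries (69.2%). HOXA7 lay at 2.75 to 3.25 TPM in sgEPCR DMSO and 2.61 to 3.72 TPM in sgEPCR UM171.

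At 72 h 38.8% of all tested genes were higher and 36.8% lower. Among TALE partners of HOX proteins, 3 of 6 tested genes were higher and 1 lower at 72 h, with PBX3 at 0.83 ± 0.08, TGIF1 at 0.62 ± 0.05 and PKNOX1 at -0.71 ± 0.05. Factors that bind with GATA2 and RUNX1 in stem cells were split, 2 of 5 higher and 3 lower. ERG, an ETS factor, rose by 1.4 ± 0.11 (3.34e-09), whereas TAL1 fell by 0.74 ± 0.06 and LMO2 by 0.44 ± 0.04 on the log2 scale. Among cofactors 3 of 10 were higher and 6 lower at 72 h (38.8% and 36.8% of all genes). PSIP1, which tethers the menin complex to chromatin at HOXA9, rose by 1.2 ± 0.09 and RUNX2 by 1.19 ± 0.07, and CBFB, the partner that RUNX1 needs to bind DNA, fell by 0.84 ± 0.05 on the log2 scale.

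Of the other stem cell factors 5 of 10 tested were higher and 4 lower at 72 h, beside the same 38.8% and 36.8% of all genes. MLLT3, which maintains human stem cells in culture, rose from 8.62 to 9.65 TPM in DMSO to 24.2 to 28 TPM (1.44 ± 0.06, adjusted p = 6.96e-13), and by 1.23 at 6 h. In sgEPCR cells MLLT3 was not changed by the test (adjusted p = 0.817, and 0.0730 without the high mitochondrial libraries), and its difference of response was -1.49 ± 0.28 (adjusted p = 0.00145) or -1.55 ± 0.08 without those libraries. IKZF2 rose by 0.71 ± 0.06 and IKZF1 fell by 0.61 ± 0.04 on the log2 scale. Of factors of myeloid differentiation 5 of 13 were higher and 4 lower at 72 h, beside the same shares of all genes. EGR1 and EGR2, immediate early factors of the monocyte path, rose by 3.68 ± 0.15 and 3.77 ± 0.19, and CEBPB by 1.90 ± 0.11, so CEBPB rose while CEBPA fell. GATA1, KLF1 and GFI1B, the erythroid and megakaryocyte factors that act after GATA2, had at most 9 counts in a library. NFE2 rose by 0.63 ± 0.06 and ZFPM1, the partner of GATA1, fell by 0.71 ± 0.18 on the log2 scale.

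The genes whose pattern over the 21 libraries was most like each factor (Pearson's r on TMM-scaled log2 CPM, a description) were ADORA2A, CTNNA1 and TRD-AS1 for GATA2 (r of 0.97, 0.97 and 0.96). For SPI1 they were FSCN1, MYH9 and SLCO3A1 (0.94, 0.93 and 0.92), for CEBPA KCNK5, ECE2 and TEF (0.98, 0.96 and 0.96), for HOXA9 KIZ, CCDC26 and STRBP (0.96, 0.94 and 0.93), and for HOXA10 ZHX3 and PSMG4 (0.97 and 0.96). For MEIS1 they were C2orf88, PPM1H and TRAF5 (0.92, 0.92 and 0.91), for RUNX1 QKI, RAB10 and KMT2E (0.93, 0.93 and 0.92), and for MYB LCP2, an unnamed gene and TXLNG (0.95, 0.93 and 0.93). All points share groups, and the 2 high mitochondrial libraries weigh on them. Over the other 19 libraries the first place went to YES1 for GATA2 (0.99), SCAMP2 for SPI1 (0.98), DTNB for HOXA9 (0.96), LGALS12 for MYB (0.96), PPM1H for MEIS1 (0.94) and PRKCD for RUNX1 (0.94), and stayed with KCNK5 for CEBPA (0.94) and ZHX3 for HOXA10 (0.96).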

How the data were processed

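RNA of 21 OCI-AML5 libraries was analysed. Per the submitters' notes the reads passed CASAVA 1.8.2, Trimmomatic 0.35, STAR 2.5.1b and RSEM 1.2.28 on GRCh38. The authors deposited, per gene, RSEM expected counts, TPM, a weighted transcript length and a posterior SD of the count. The counting strand setting is not given in the sources used here.

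Identifiers without version were matched to GENCODE symbols (57392 of 58174). Expected counts were rounded and tested with edgeR 4.0.16 (R 4.3.3): filterByExpr, TMM scaling, quasi-likelihood F test, Benjamini-Hochberg adjustment over all tested genes. The time course was fitted on 15 libraries (16575 genes) and the sgEPCR comparisons on 12 (15901 genes). TPM gave levels. The fits were tested on simulated data. Alternatives used limma 3.58.1 with TPM on the log2 scale (pseudocount 1 or 0.1), DESeq2 1.42.0, other scalings, filters, GC offsets, a replicate block and left-out libraries; leaving out both libraries with a high mitochondrial share for the gene lists and their named genes, combining that with GC offsets, and the patterns over 19 libraries were chosen after seeing the data. Replicate pairs differed beyond sampling noise, so all 21 were kept.

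The members, the gene lists and the rule for named genes (all members, the genes of each list with the largest changes, the 3 genes of most similar pattern per member) were chosen with earlier results of these data known. A few genes that these rules select are not reported here.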

Additional observations from a re-analysis of the deposited data

Results flagged for a closer look

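The response to 24 h of UM171 differed between sgEPCR and control cells for 3 of the factors in edgeR's test of the difference itself. On the log2 scale the difference, sgEPCR minus control, was -2.10 for HOXA9, -1.08 for HOXA10 and 0.94 for SPI1. HOXA9 rose in control and fell in sgEPCR cells, HOXA10 fell in sgEPCR cells and was not called in control cells, and SPI1 fell in control cells and was not called in sgEPCR cells. Without the libraries with a high mitochondrial share the SPI1 response in sgEPCR cells was 0.13 (not called), and with GC offsets as well 0.33 (adjusted p = 2.17e-05). The control libraries in DMSO are labelled 72 h and those of sgEPCR cells 24 h, so culture time and genotype cannot be told apart in these differences.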

How the results depend on the processing

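For the 33 log2 changes of the factors called in the time course, 901 of 924 alternative values kept their direction and side of the threshold, 23 lost the call and 0 reversed. Among those not called, GATA2 at 6 h was -0.20 and, with GC offsets, 0.060. With a change over 2-fold and an adjusted p under 0.0001, the called genes numbered 1165 at 6 h, 2276 at 24 h, 2719 at 48 h, 3448 at 72 h and 1978 between 72 and 24 h. In the sgEPCR comparisons that rule gave 1642 for the response, 452 in DMSO, 709 in UM171 and 1236 for the difference of responses. The factors past it numbered 1 at 6 h, 2 at 24 h, 2 at 48 h, 0 between 72 and 24 h (6 in edgeR at an adjusted p under 0.05), 1 for the sgEPCR response, 0 in DMSO and 0 in UM171 (3 each in edgeR at an adjusted p under 0.05) and 1 for the difference. A fit of all 21 libraries called 6558 genes at 6 h, and 4 factors at 48 h, 3 between 72 and 24 h and 5 in sgEPCR against control DMSO. With limma on log2(TPM + 1) the sgEPCR counts of genes were 3196, 1481, 1989 and 2011 (response, DMSO, UM171, difference), and on log2(TPM + 0.1) 3198, 1450, 1605 and 1748, with 3 factors in the response under both.

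Without both libraries with a high mitochondrial share 9868 genes and 8 factors were called in DMSO, 11169 and 7 in UM171, and 11328 and 6 for the difference. With GC offsets as well, an alternative chosen after seeing the data, these were 10198 and 7, 11368 and 6, and 11562 and 6. GC offsets alone called 5 factors in DMSO and total count scaling 5 in UM171. With 1 library left out, the factors called were 3 to 5 for the difference, 2 to 5 in DMSO and 2 to 5 in UM171, and each 5 came without sgEPCR UM171 24 h replicate 2.

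The sgEPCR comparisons had 27 log2 changes of the factors called with all libraries or without those 2, and 38 of 750 alternative values reversed. With 1 library left out, 290 values kept direction and side of the threshold, 17 lost the call, 7 gained it and 10 reversed. Under the other settings 336 kept both, 27 lost the call, 35 gained it and 28 reversed. Against control DMSO, limma with pseudocounts 1 and 0.1 gave -0.072 and -0.081 for GATA2, -0.26 and -0.29 for HOXA10, -0.22 and -0.34 for MEIS1, -0.23 and -0.23 for MYB and -0.67 and -0.68 for RUNX1. MYB there was -0.14 with total count scaling, -0.11 to 0.33 with 1 library left out (-0.11 without sgEPCR DMSO replicate 1), -0.12 without both libraries and -0.16 with GC offsets as well. RUNX1 there was -0.064 with upper quartile scaling, -0.35 with total counts, -0.0014 without a filter, -0.036 with a floor of 10 counts per library, -0.028 with GC offsets, -0.0035 without mitochondrial genes, -0.40 without both libraries, -0.46 with GC offsets as well, and -0.39 to 0.17 with 1 library left out (-0.038 without DMSO replicate 2 and -0.39 without sgEPCR DMSO replicate 1). In UM171, limma gave -0.22 and -0.22 for GATA2 and -0.10 and -0.10 for SPI1. GATA2 there was -0.0022 with total counts and -0.049 to 0.26 with 1 library left out, below 0 without UM171 24 h replicate 1 (-0.0077) or 2 (-0.033) or sgEPCR UM171 replicate 1 (-0.034) or 3 (-0.049). The RUNX1 response in sgEPCR cells was -0.21 to 0.52 with 1 library left out, and -0.038, -0.030 and -0.21 without sgEPCR DMSO replicate 2 or 3 or sgEPCR UM171 replicate 2. The cause of these changes was not tested. In sgEPCR against control DMSO RUNX1 was 0.0018 ± 0.28 in the main fit. Limma called it lower there with either pseudocount (adjusted p of 0.0169 and 0.0194). Total count scaling moved the median log2 change of all genes to 0.20 at 6 h and -0.25 in sgEPCR against control DMSO.

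Replicate numbers gave no steady pairing of control libraries, with correlations of deviations from -0.41 to 0.42 over 30 same-number pairs. Across the sgEPCR groups 3 same-number pairs ran from -0.91 to 0.85. There the 2 high mitochondrial libraries, which carry different replicate numbers, correlated at 0.91. These libraries dominate the deviations, so the check cannot show whether sgEPCR libraries were paired. With a replicate block 10142, 11421, 11853 and 12426 genes were called at 6, 24, 48 and 72 h, 6306 in the sgEPCR response and 5018 for the difference. RUNX1 in sgEPCR against control DMSO was -0.022 with the block and -0.056 with GC offsets and the block. HLF and MECOM had too few counts to be tested (55 and 38 over all 21 libraries).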

Other observations

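Markers of the cells' stage moved in several directions at 72 h of UM171. Of 9 stem cell surface and secreted markers 3 were tested, and 1 was higher and 2 lower, when 38.8% of all tested genes were higher and 36.8% lower. CD34 was at 4.34 to 5.15 TPM in DMSO, 9.11 to 10.1 TPM at 6 h and 0.92 to 1.18 TPM at 72 h, a log2 change of 0.81 ± 0.09 at 6 h and -2.29 ± 0.11 at 72 h (edgeR, adjusted p = 3.12e-12). FLT3, a cytokine receptor of progenitors, changed by -1.57 ± 0.08 and MMRN1 by 1.46 ± 0.11 at 72 h. Of 7 tested monocyte genes 7 were higher and 0 lower at 72 h (38.8% of all genes were higher), with ITGAM at 12 to 14.2 TPM in DMSO and 96.0 to 100.3 TPM at 72 h (3.02 ± 0.05), while the monocyte factor SPI1 fell. The monocyte marker CD14, of the same list, was close to absent and not tested, with at most 0.42 TPM and 17 counts in any library.

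Among granule genes of progenitors 2 of 3 tested were higher and 1 lower at 72 h, beside the same shares of all genes. CTSG went from 28.6 to 33 TPM in DMSO to 134 to 155 TPM at 72 h (2.11 ± 0.06), and MPO, the myeloperoxidase of granulocyte precursors, changed by 0.89 ± 0.10 at 24 h and -0.96 ± 0.12 at 72 h. In sgEPCR cells MPO was at 3.69 to 9.08 TPM in DMSO and 0.48 to 0.99 TPM in UM171 (-3.49 ± 0.12, adjusted p = 1.11e-08, and -3.57 ± 0.11 without the libraries with a high mitochondrial share).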
